A study of Ovis aries with 95 samples.

Results

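Gene expression in the fetal sheep hypothalamus was compared with that in the fetal brainstem shortly before birth. The comparison used every array labelled with either region and 145 d of gestation, which gave 4 hypothalamus and 4 brainstem arrays out of the 95 arrays of the series. The whole series held 4 brain regions (cortex, hippocampus, hypothalamus and brainstem) at 6 ages, with up to 4 arrays in each of the 24 groups, and each array carried RNA of 1 region. The fetuses of the 145 d group were collected at 142 to 144 d of gestation and received no treatment, and the ages reached from 80 d of gestation to the first day after birth. Per the methods, the regions were dissected from the same fetuses, and each age group held a pair of twins that the labels do not mark. No genotype or strain was given in the labels. Both regions were dissected whole, so each sample mixed neurons, glia, vessels and any adhering tissue, and in such samples fewer cells of a type and less RNA per cell cannot be told apart.

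The hypothalamus lies at the base of the forebrain and links the brain to the pituitary. Its neurons make peptides that set the release of pituitary hormones, food intake, water balance and reproduction, and near term it drives the hormonal cascade that matures the fetal organs. The brainstem joins the brain to the spinal cord and holds the cranial nerve nuclei, the centres for breathing and heart rate, the serotonin neurons of the raphe and long myelinated tracts. The HOX genes code for transcription factors that give cells of the hindbrain and spinal cord their position along the body axis, and they are silent in the forebrain.

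The arrays carried DNA probes of 60 bases, and the probes of a pair of HOX genes are shown because the results turn on this family and because its members resemble each other. The capitals mark the longest stretch that both probes shared, of 11 bases.
HOXA5: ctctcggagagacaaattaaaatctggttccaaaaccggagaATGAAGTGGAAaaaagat
HOXA4: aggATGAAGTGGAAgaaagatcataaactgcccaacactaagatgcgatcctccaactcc
The shared stretch lies in the homeobox, the part of the gene that codes for the DNA-binding homeodomain and is much alike among such genes. The stretch ATGAAGTGGAA was found on either strand in 6 of the 15008 probes (0.04%). A transcript of a related homeobox gene could therefore bind to a probe named for another one, which was not tested, and the values below are those of the probes.

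The probes of GHRH, GAL and GNRH1 are shown as examples of hypothalamic peptide genes, with the stretch that the 2 probes of a gene shared in capitals.
GHRH, first probe: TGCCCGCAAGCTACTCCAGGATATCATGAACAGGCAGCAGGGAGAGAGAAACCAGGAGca
GHRH, second probe: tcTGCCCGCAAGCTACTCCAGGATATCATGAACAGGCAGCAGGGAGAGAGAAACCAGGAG
GAL, first probe: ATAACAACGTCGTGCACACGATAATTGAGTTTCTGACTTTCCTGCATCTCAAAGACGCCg
GNRH1, first probe: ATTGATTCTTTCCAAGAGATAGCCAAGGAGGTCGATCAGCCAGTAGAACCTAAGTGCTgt
Of 70 genes considered here with 2 probes each, 48 had probes that overlapped, by 20 to 59 bases. The 2 probes of such a gene are therefore not independent measurements, and they were averaged.

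The values are log2 normalized intensities, so a difference of 1 is a 2-fold difference, and differences are given as hypothalamus minus brainstem. Between 74.8% and 84% of the 15208 gene spots of an array were well above background, and 0 spots were saturated. The 4 brainstem arrays correlated with each other at 0.988 to 0.993 (Pearson's r across genes), and hypothalamus replicates 3 and 4 at 0.988. Hypothalamus replicate 1 stood apart, with r of 0.936 to 0.948 to the other hypothalamus arrays, and replicate 2 followed. These 2 arrays also had 132 and 157 outlier spots, against 4 to 15 on the other arrays. No slide held both regions, and the arrays of the 2 regions were scanned on different days, so a difference between regions and a difference between slides or scan days cannot be told apart.

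Of 12203 genes or unnamed probes tested (hereafter genes), 1146 were higher in hypothalamus (9.39%) and 533 were higher in brainstem (4.37%) at an adjusted p under 0.05 with limma. Among the 837 of them that could be given a gene symbol, 75 were higher in hypothalamus and 64 in brainstem. More than 2-fold differences were called for 166 genes in hypothalamus and 178 in brainstem. The 4 hypothalamus and 4 brainstem arrays did not overlap for 2899 genes (23.8%). The median difference over all genes was 0.05, and the quartiles were -0.19 and 0.30. The share of calls toward hypothalamus was 68.3% and depended on the scaling, since it was 52.4% with the scanner software's processed signals scaled to the 75th percentile and 52.1% with the authors' table of normalized values. Taking slide as a random block left 476 and 158 calls. Without hypothalamus replicate 1 there were 1517 and 710 calls. Leaving out brainstem replicate 1, 2, 3 or 4 left 585, 656, 560 or 500 calls toward hypothalamus and 243, 290, 223 or 179 toward brainstem, while leaving out hypothalamus replicate 2, 3 or 4 gave 821, 862 or 1164 and 507, 364 or 454.

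**Figure D1:**
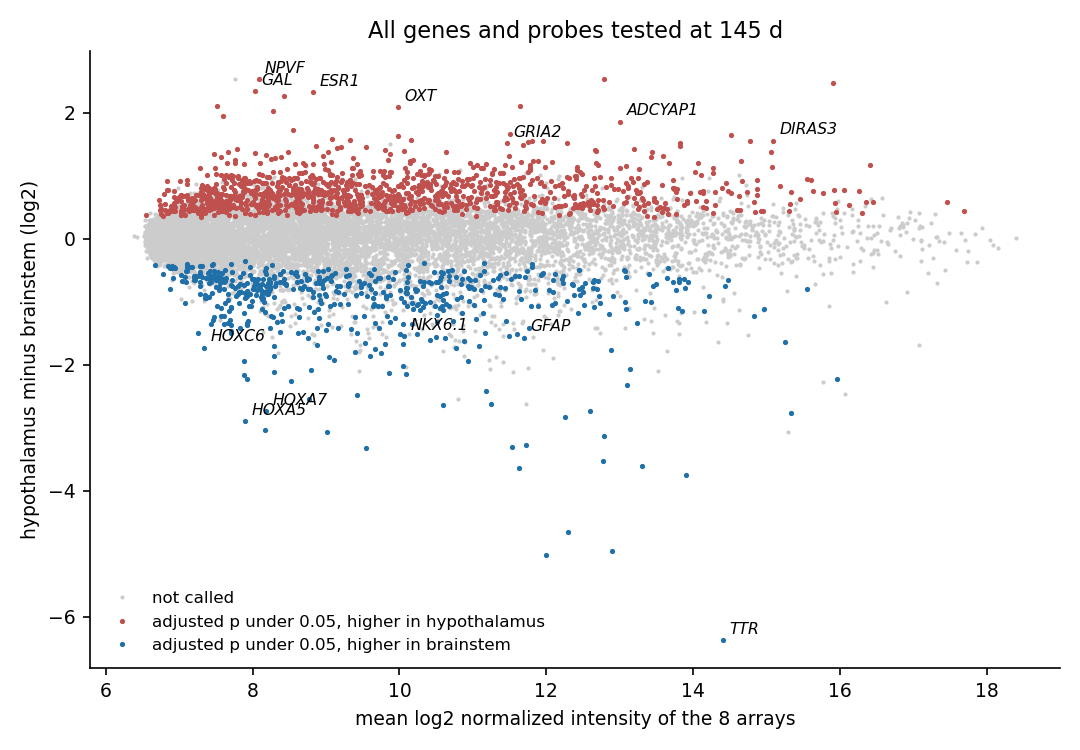
Difference between hypothalamus and brainstem at 145 d (y axis, log2) against the mean log2 normalized intensity of the 8 arrays (x axis) for each gene or unnamed probe tested, with called genes in red (1146 higher in hypothalamus) and blue (533 higher in brainstem). The peptide genes NPVF, GAL and OXT lie near the upper edge, the HOX genes and TTR at the lower edge, and most of the largest differences belong to probes without a gene symbol.

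Several hypothalamic neuropeptide genes were higher in hypothalamus, with NPVF and GAL the named genes with the largest called differences in that direction. Of the 17 genes on the list of hypothalamic peptides and their processing enzymes with a named probe, 8 were higher in hypothalamus, 1 was higher in brainstem and 8 were not called. The share higher in hypothalamus was 47.1%, against 9.39% of all genes. The list's median difference was 0.65, against 0.05 over all genes. The genes called were NPVF, GAL, AGRP, OXT, GHRH, ADCYAP1, GNRH1 and PMCH, and without hypothalamus replicate 1 the list still had 8 and 1 calls.

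NPVF, which codes for the RFamide peptides that restrain gonadotropin release, read 9.37, 9.25, 9.46 and 9.33 in hypothalamus and 6.76, 6.71, 6.89 and 6.87 in brainstem. The 2 groups lay far apart with little spread inside either. The difference was 2.54 ± 0.10 (SE), 5.82-fold, with an adjusted p of 1.73e-05 in limma.

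GAL, the gene for galanin, which acts on feeding, prolactin release and reproduction, read 9.25, 9.43, 8.81 and 9.36 in hypothalamus and 6.85, 7.53, 6.48 and 6.60 in brainstem. Brainstem replicate 2 was the highest of its group but lay well below the lowest hypothalamus array. The difference was 2.35 ± 0.24 (SE; limma adjusted p = 0.00167).

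AGRP, made by arcuate neurons that promote feeding, read 7.96, 9.71, 8.17 and 8.45 in hypothalamus. In brainstem it read 6.46, 6.47, 6.44 and 6.46 and was not well above background on any array. It was therefore at least 4.27-fold higher in hypothalamus (limma adjusted p = 0.00682), a bound taken against the lowest signals that stood clear of background. The hypothalamus arrays differed widely among themselves, with replicate 2 the highest.

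OXT, the gene for oxytocin, read 10.39, 11.48, 10.89 and 11.33 in hypothalamus and 9.03, 8.71, 9.09 and 8.89 in brainstem. The lowest hypothalamus array, replicate 1, was above every brainstem array. The difference was 2.09 ± 0.23 (SE), 4.26-fold (limma adjusted p = 0.00203).

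GHRH, which drives growth hormone release, read 8.27, 8.76, 8.56 and 8.72 in hypothalamus and 6.87, 6.48, 6.72 and 6.43 in brainstem. The difference was 1.96 ± 0.15 (SE; limma adjusted p = 0.000684), and its overlapping probes shown above gave 1.74 and 2.17. GNRH1, the releasing hormone of the reproductive axis, read 7.2047, 7.4812, 7.0035 and 7.4682 in hypothalamus, while none of the 4 brainstem arrays was well above background. GNRH1 was at least 1.80-fold higher in hypothalamus (limma adjusted p = 0.00471). Both hypophysiotropic hormones had low but separate levels.

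ADCYAP1, the gene for the peptide PACAP, was bright in both regions, with 13.63, 14.22, 14.10 and 13.81 in hypothalamus and 12.39, 12.09, 12.17 and 11.67 in brainstem. The difference was 1.86 ± 0.19 (SE; limma adjusted p = 0.00164). PMCH, which codes for melanin-concentrating hormone of the lateral hypothalamus, read 6.89 to 7.05 in hypothalamus and 6.42 to 6.68 in brainstem. Its difference of 0.40 had an adjusted p of 0.0334 and lost its call with slide as a random block (adjusted p = 0.131).

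The peptide genes that were not called include several with high levels in both regions. SST, the gene for somatostatin, which inhibits growth hormone release, read 12.50 to 13.55 in hypothalamus and 11.50 to 12.90 in brainstem, and the groups overlapped (difference 0.81, limma adjusted p = 0.157). NPY, a feeding peptide, overlapped likewise, with hypothalamus replicate 2 at 11.82 far above the other hypothalamus arrays. POMC, the precursor of melanocortins and ACTH, read 9.59, 10.28, 10.20 and 10.64 in hypothalamus and 9.67, 10.20, 9.51 and 9.53 in brainstem (difference 0.45, adjusted p = 0.242). Its 2 probes, shifted by a single base, gave differences of 0.14 and 0.76. The tachykinin genes TAC1 and TAC3 had differences of 0.33 and 0.48, GRP, for gastrin-releasing peptide, had 0.65, the convertase PC1 had 0.46 and the carboxypeptidase CPE had -0.05. UNC, the name in the files for urocortin, a relative of the stress peptide CRH, was the peptide gene called toward brainstem. It read 8.9968, 8.62, 8.58 and 8.15 in hypothalamus and 9.39, 9.12, 9.07 and 9.59 in brainstem (difference -0.71, limma adjusted p = 0.0446), and its adjusted p with slide as a random block was 0.164.

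**Figure D2:**
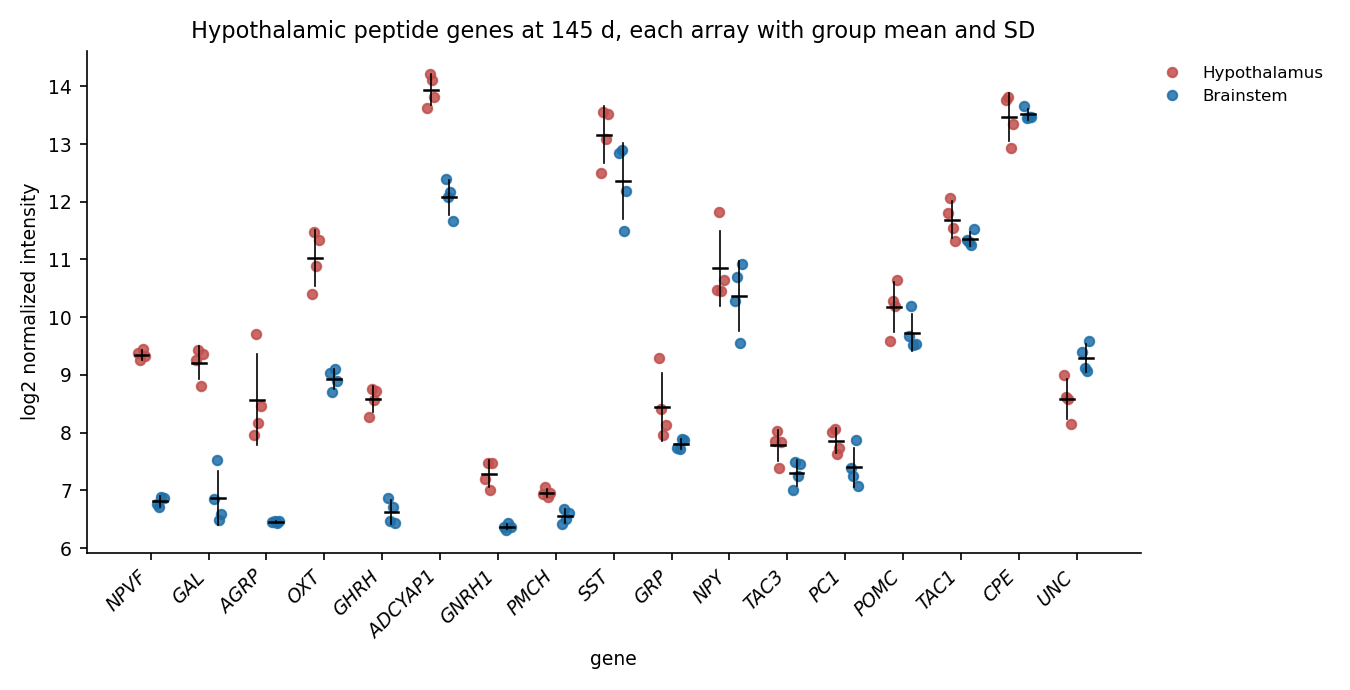
Log2 normalized intensity (y axis) of the 17 hypothalamic peptide and processing genes (x axis) on each of the 4 hypothalamus (red) and 4 brainstem (blue) arrays at 145 d, with bars for the mean and SD of each group. The hypothalamus arrays of NPVF, GAL, AGRP, OXT, GHRH, ADCYAP1, GNRH1 and PMCH all sit above the brainstem arrays, those of UNC sit below, and the other genes except GRP overlap.

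Some hormone receptors were higher in hypothalamus, although most of those tested were not called. ESR1, the estrogen receptor alpha, read 9.86, 10.29, 9.95 and 9.87 in hypothalamus and 7.63, 7.67, 7.74 and 7.60 in brainstem. The groups were far apart with little spread inside either, and the difference was 2.33 ± 0.12 (SE), 5.03-fold (limma adjusted p = 0.00011). PGR, the progesterone receptor, which estrogen induces in the hypothalamus, read 7.30 to 7.48 against 6.42 to 6.78 (difference 0.69, adjusted p = 0.00829). A separate probe described as the 3′ UTR of the progesterone receptor, and not averaged with it, had a difference of -0.36 that was not called (adjusted p = 0.105). TSHR, the thyrotropin receptor, differed by 0.78 (adjusted p = 0.00992) and PTGFR, the prostaglandin F receptor, by 1.37 (adjusted p = 0.0155). Of the 39 hormone and transmitter receptors tested, 6 were higher in hypothalamus (15.4%, against 9.39% of all genes) and 1 in brainstem (2.56%, against 4.37%), with a median difference of 0.01. The other 2 called toward hypothalamus were the activin receptors ACVR1 and ACVR2A, with differences of 0.62 and 0.67, and SSTR5, a somatostatin receptor, was called toward brainstem at -0.55. These 3 fall outside the naming rule and were named after their values were seen. ESR2, the second estrogen receptor, had a difference of -0.05.

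CRHBP, which binds the stress peptides CRH and urocortin, read 9.84, 10.33, 9.97 and 9.36 in hypothalamus and 9.05, 8.23, 7.91 and 7.96 in brainstem. The difference was 1.59 ± 0.29 (SE; limma adjusted p = 0.0105). HSD11B1, the enzyme that regenerates active cortisol, differed by 1.22 (adjusted p = 0.00203), with 9.49 to 9.98 in hypothalamus and 8.33 to 8.57 in brainstem. It was the gene called among the 7 of steroid and prostaglandin metabolism tested (14.3%, against 13.8% of all genes). Of these 7, 0 were higher in brainstem, and the list's median was 0.25.

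Among other named genes, ISL1, a LIM homeobox gene of arcuate neuron development, read 8.37, 8.55, 8.42 and 8.70 in hypothalamus and 7.17, 6.91, 7.12 and 7.10 in brainstem, a difference of 1.43 ± 0.12 (SE; limma adjusted p = 0.000684). It was the gene called among the 3 forebrain patterning genes tested (33.3% higher in hypothalamus, against 9.39% of all genes). The list's median difference was -0.02. The eye and forebrain gene PAX6 had a difference of -0.39 (adjusted p = 0.104) and the neuronal differentiation gene NEUROD1 one of -0.02 (adjusted p = 0.977), and neither was called. GRIA2, an AMPA glutamate receptor subunit, read 11.87 to 12.47 against 10.49 to 10.86, a difference of 1.52 (adjusted p = 0.0015). DIRAS3, a Ras-like gene, differed by 1.56 (adjusted p = 0.00218) and CD247, the zeta chain of the T cell receptor, by 1.47 (adjusted p = 0.00232).

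The genes that pattern the hindbrain and spinal cord were higher in brainstem. Of 7 such genes tested, 6 were higher in brainstem (85.7%, against 4.37% of all genes) and 0 in hypothalamus, and the list's median difference was -1.54. They were HOXA5, HOXA7, HOXC6, NKX6.1, GATA3 and HOXA4. Without hypothalamus replicate 1 the list again had 6 calls, and with slide as a random block it had 5, without GATA3.

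HOXA5 read 9.57, 9.68, 8.60 and 9.51 in brainstem and 6.56, 6.42, 6.46 and 6.35 in hypothalamus, where 1 of the 4 arrays was well above background. Brainstem replicate 3 was well below the other brainstem arrays and far above every hypothalamus array. The difference was -2.89 ± 0.23 (SE), 7.42-fold (limma adjusted p = 0.000684).

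HOXA7 read 9.18, 9.81, 9.21 and 10.01 in brainstem and 7.21, 6.66, 6.68 and 6.71 in hypothalamus. Hypothalamus replicate 1 was the highest of its group. The difference was -2.74 ± 0.22 (SE), 6.67-fold (limma adjusted p = 0.000684).

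HOXC6 read 8.04, 8.65, 7.61 and 8.50 in brainstem and was not well above background on any hypothalamus array. It was at least 3.30-fold higher in brainstem (limma adjusted p = 0.00281). HOXA4, the HOX gene of the 4 with the most anterior expression border, read 7.75, 7.62, 7.55 and 7.40 in brainstem and 6.74, 6.55, 6.53 and 6.46 in hypothalamus, where 2 arrays were well above background. Its difference was -1.01 ± 0.12 (SE; limma adjusted p = 0.00218). The arrays of the 2 regions thus did not overlap for any of the 4 HOX genes measured, against 23.8% of all genes. HOXA7 was the one that stood above background on every hypothalamus array.

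NKX6.1, a homeobox gene of ventral hindbrain and spinal progenitors and motor neurons, was well above background in both regions, with 10.58, 10.84, 11.10 and 10.82 in brainstem and 9.19, 9.67, 8.95 and 9.34 in hypothalamus (difference -1.54, limma adjusted p = 0.00214). GATA3, needed for raphe and inner ear neurons, read 9.21 to 10.03 in brainstem and 8.02 to 8.91 in hypothalamus (difference -1.07, adjusted p = 0.0246). NKX2.2, a homeobox gene of the ventral neural tube, had a difference of -0.40 and was not called (adjusted p = 0.0933). The serotonin transporter gene SLC6A4, a marker of raphe neurons, read 6.87, 7.23, 7.05 and 7.05 in brainstem and 6.52, 6.43, 6.51 and 6.54 in hypothalamus, a difference of -0.55 (limma adjusted p = 0.0131, and 0.0797 with slide as a random block). It was the gene called among 3 of the monoamine and acetylcholine list (33.3%, against 13.8% of all genes), whose median was -0.19. The noradrenaline transporter SLC6A2 had a difference of 0.10 and the melatonin synthesis enzyme AANAT one of -0.19, and neither was called.

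**Figure D3:**
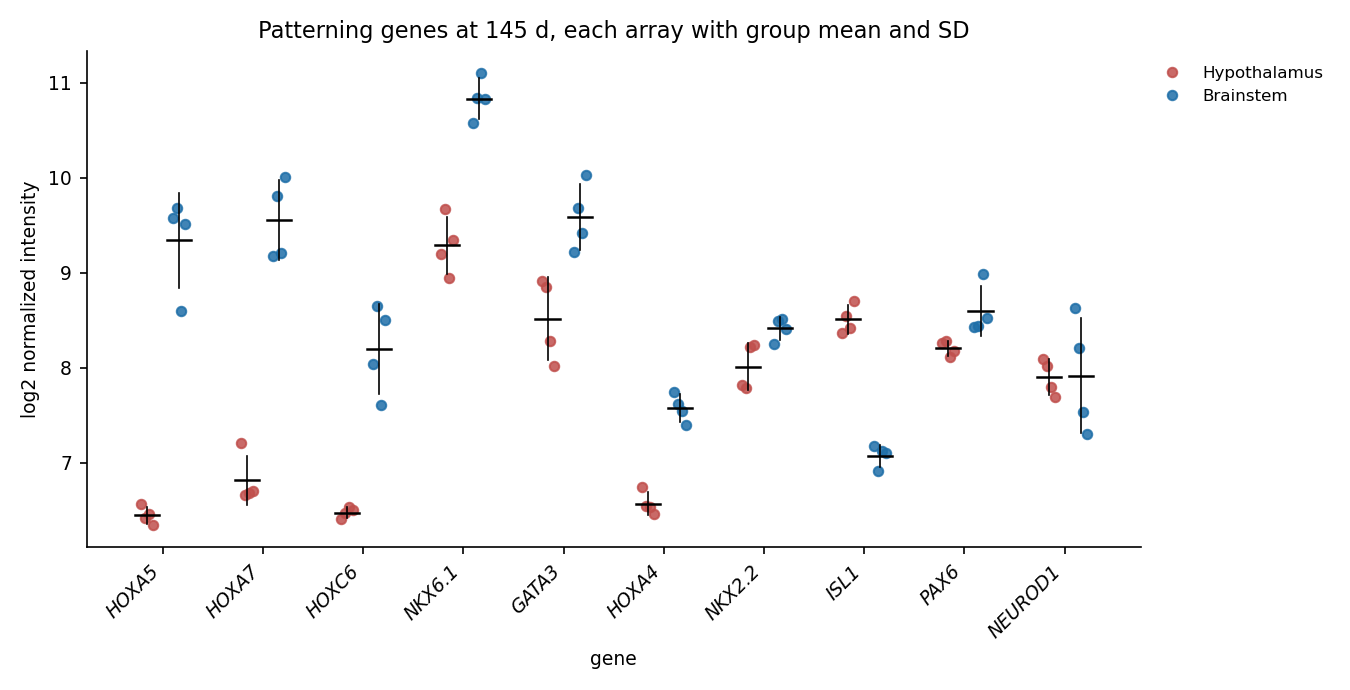
Log2 normalized intensity (y axis) of the 7 hindbrain and spinal and the 3 forebrain patterning genes tested (x axis) on each hypothalamus (red) and brainstem (blue) array at 145 d, with bars for the mean and SD of each group. The hypothalamus arrays of HOXA5, HOXC6 and HOXA4 lie near 6.5, below the brainstem arrays, and ISL1 is the gene whose hypothalamus arrays lie above.

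Glial and myelin genes were less uniform. CX32, the gap junction gene of myelinating glia, read 10.57, 10.43, 10.35 and 10.38 in brainstem and 8.71, 9.23, 8.99 and 9.13 in hypothalamus. The brainstem arrays were nearly alike, and the difference was -1.42 ± 0.13 (SE; limma adjusted p = 0.00132). Of the 7 oligodendrocyte and myelin genes tested, CX32 was called toward brainstem and 0 toward hypothalamus, with a median of -0.54. The share called was 14.3%, against 13.8% of all genes. The mean level of the 7 genes on each array was 13.61 to 13.80 in brainstem and 12.97 to 13.31 in hypothalamus. TF, which codes for the iron carrier transferrin of oligodendrocytes, had a difference of -0.54 (adjusted p = 0.124) and the small heat shock gene CRYAB one of -0.99 (adjusted p = 0.0701).

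GFAP, the intermediate filament of astrocytes, read 13.02, 12.13, 12.59 and 12.18 in brainstem and 10.13, 11.73, 10.91 and 10.87 in hypothalamus. The groups did not overlap, although the hypothalamus arrays spread widely, and the difference was -1.57 ± 0.33 (SE; limma adjusted p = 0.0187, and 0.0775 with slide as a random block). It was the gene called among 10 astrocyte genes (10%, against 13.8% of all genes), whose median was 0.01. The water channel AQP4 and the metallothionein MT3 had differences of -0.12 and 0.13. The mean level of the astrocyte genes was 11.54 to 11.61 on the brainstem arrays and 10.70 to 11.69 on the hypothalamus arrays, with replicate 1 the lowest.

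TTR, the thyroxine carrier secreted by the choroid plexus, had the largest difference of any named gene. It read 17.00, 17.08, 17.85 and 18.44 in brainstem and 12.10, 11.66 and 9.93 in hypothalamus replicates 1, 3 and 4, since the single spot of hypothalamus replicate 2 was an outlier and was left out of the fit. The difference was -6.36 ± 0.56 (SE; limma adjusted p = 0.0015). Of the 6 choroid plexus genes tested, TTR was the gene called (16.7%, against 13.8% of all genes). The others had differences of -1.32 for AHSG (fetuin), -1.06 for IGF2, -0.44 for PTGDS, -0.43 for CP (ceruloplasmin) and 0.10 for the water channel AQP1. Without hypothalamus replicate 1 the list had 3 calls toward brainstem. The choroid plexus lies next to the brainstem along the ventricle, and the part of adhering plexus in the level of TTR was not tested.

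The other named genes with large differences toward brainstem had varied roles. VEGFA, the main angiogenic factor, read 9.36, 9.35, 10.05 and 9.57 in brainstem and 8.42, 8.11, 7.85 and 8.27 in hypothalamus (difference -1.42, limma adjusted p = 0.00391). EIF3A, a translation initiation factor, differed by -1.57 (adjusted p = 0.00826), HR, the hairless corepressor, by -1.35 (adjusted p = 0.0227), MYLK, myosin light chain kinase, by -1.34 (adjusted p = 0.0121) and INHBA, the activin beta A subunit, by -1.32 (adjusted p = 0.00446). EM4C, EM4B and EP4d, known by these names alone in the files, differed by -2.14, -1.35 and -1.47. Among the energy and lipid metabolism genes, HK1, CPT1A and CKB, which phosphorylate glucose, import fatty acids into mitochondria and buffer ATP, differed by -1.32, -1.30 and -1.14. These 3 were called of 22 tested (13.6%, against 13.8% of all genes), with 0 toward hypothalamus and a list median of -0.05. Without hypothalamus replicate 1 the list had 3 calls in each direction, and HK1, HR and EP4d lost their calls with slide as a random block (adjusted p = 0.0995, 0.0945 and 0.0721).

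Pituitary hormone genes were examined because the pituitary is joined to the hypothalamus. CGA, the common alpha subunit of the glycoprotein hormones, read 9.49, 6.99, 7.84 and 11.80 in hypothalamus and 6.67, 6.49, 6.35 and 6.43 in brainstem. Every hypothalamus array was above every brainstem array, but they differed widely among themselves, and the difference of 2.54 ± 0.88 (SE) was not called (limma adjusted p = 0.0889). Of the 6 pituitary genes tested, 0 were higher in hypothalamus and 1 was higher in brainstem (16.7%, against 4.37% of all genes). LHB was higher in brainstem, with a difference of -0.60 (adjusted p = 0.0451), a call lost under 16 of 23 alternatives, among them slide as a random block (adjusted p = 0.0929), and its 2 probes, which do not overlap, gave -0.97 and -0.23. PRL, for prolactin, read 6.84 to 7.01 in hypothalamus and 7.46, 9.59, 6.76 and 7.17 in brainstem, with replicate 2 far above the rest. GH, for growth hormone, was well above background on 0 hypothalamus arrays and 1 brainstem array. The part of pituitary tissue in the hypothalamic values was not tested.

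Of 44 genes on the lymphocyte, myeloid and MHC and interferon lists, 4 were called toward hypothalamus and 3 toward brainstem, together 15.9% against 13.8% of all genes. By list, the share called was 33.3% of lymphocyte, 11.1% of myeloid and 11.8% of MHC and interferon genes. B2M, the light chain of MHC class I, was higher in hypothalamus by 0.91 (limma adjusted p = 0.00682), with 14.94 to 15.50 against 14.09 to 14.39, while OVAR, an MHC class I heavy chain, was higher in brainstem, with a difference of -0.80 (adjusted p = 0.0322) and 12.93 to 13.22 against 11.72 to 12.65. Both lost their calls with slide as a random block (adjusted p = 0.0617 for B2M and 0.0616 for OVAR). Of 17 MHC and interferon genes, B2M was called toward hypothalamus and OVAR toward brainstem, with a median of -0.08. Probes without a symbol lay outside these lists, and the following were added after their values were seen. Among those described as MHC class I, the calls were toward brainstem, at -0.99, -1.04 and -0.71 (limma adjusted p = 0.0281, 0.0331 and 0.0411). How many probes of this description were not called was not counted, and 4.37% of all genes were called toward brainstem. Of 9 lymphocyte genes, CD247 and the T cell kinase LCK (0.69, adjusted p = 0.00526) were called toward hypothalamus and GNLY, granulysin, toward brainstem, while the T cell receptor genes CD3D and CD3E had differences of -0.03 and 0.41 and were not called. Of 18 microglia and myeloid genes, the integrin ITGAM was higher in hypothalamus (0.68, adjusted p = 0.0231) and CD14 in brainstem (-0.35, adjusted p = 0.0457), with a median of 0.17. The pair of probes described as DAP12, also outside the lists and added after their values were seen, had differences of -0.67 and -0.66 (limma adjusted p = 0.0312 and 0.0339). GNLY, ITGAM and CD14 also lost their calls with slide as a random block (adjusted p = 0.0732, 0.0693 and 0.16).

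The calls in the remaining lists were 1 toward hypothalamus (ANG-2) and 1 toward brainstem (VEGFA) of 19 endothelial and barrier genes, 0 of 5 erythroid genes, 1 and 1 of 9 amino acid transmission genes, 2 toward hypothalamus (CCNA2 and LMNB1) of 9 cell cycle genes, 1 toward brainstem (IGFBP2) of 12 genes of the insulin-like growth factor system, 1 (FST) and 1 (INHBA) of 15 extracellular matrix and meninges genes, and 2 (HSP90AA1 and HSPA5) and 1 (C-JUN) of 11 immediate early and stress genes. Among these lists, the share called was highest for immediate early and stress genes (27.3%), amino acid transmission genes (22.2%) and cell cycle genes (22.2%). Each had 11 genes or fewer, and the share over all genes was 13.8%. The medians of these lists lay between -0.30 and 0.20. With slide as a random block ANG-2, CCNA2, LMNB1, FST and HSPA5 lost their calls (adjusted p = 0.128, 0.168, 0.0613, 0.0664 and 0.0748), which left 0 cell cycle genes. Without hypothalamus replicate 1, ANG-2 was not called, 3 genes of the insulin-like growth factor system and 2 of the extracellular matrix list were called toward brainstem, and 1 erythroid gene was called toward hypothalamus. Of the 5 erythroid genes in the limma fit, 1 had an unadjusted p under 0.05, the erythropoietin receptor EPOR (difference -0.32, adjusted p = 0.102), and the beta globin gene HBB had a difference of -0.33. The glutamate receptor subunit NR1 was measured under 2 names that disagreed. GRIN1 was higher in brainstem, with a difference of -0.78 (adjusted p = 0.0205, and 0.0823 with slide as a random block), and the entry named NR1 had a difference of 0.39 (adjusted p = 0.153).

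**Figure D4:**
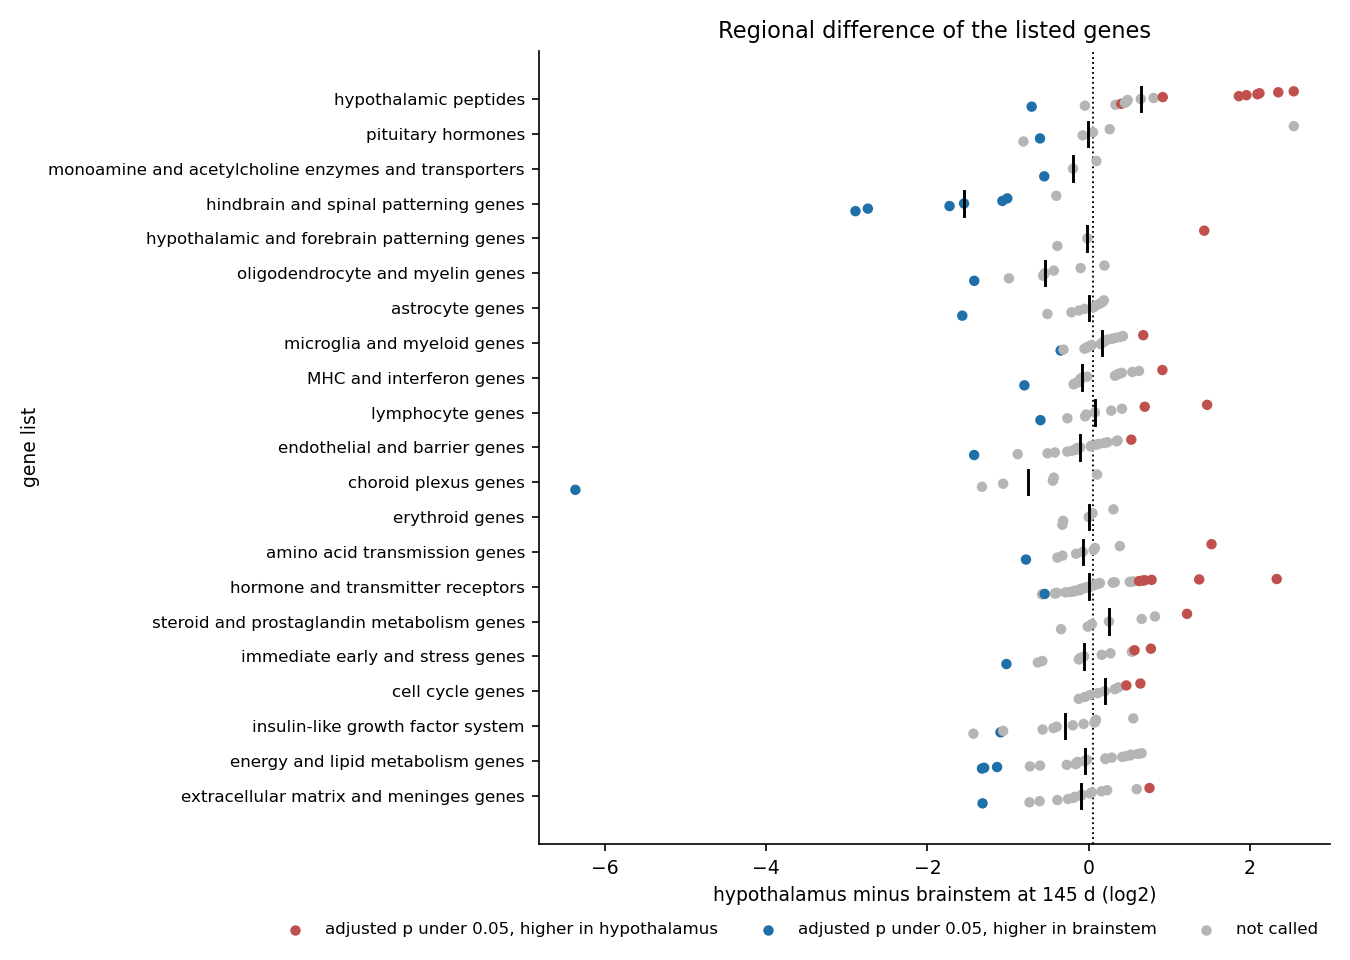
Difference between hypothalamus and brainstem at 145 d (x axis, log2) of each gene tested on each of the 21 gene lists (y axis), with called genes in red or blue, the list's median as a black bar and the median of all genes (0.05) as a dotted line. Hypothalamic peptides have the highest median at 0.65 and hindbrain and spinal patterning genes the lowest at -1.54, and the medians of most other lists lie near the dotted line.

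Some probes without a symbol are described in the files by their product, and 17 of 305 of them were higher in hypothalamus and 24 in brainstem. Over all genes the shares were 9.39% and 4.37%. The following were chosen after their values were seen. A probe for pancreatitis-associated protein I, a secreted lectin, read 12.13, 12.06, 13.48 and 12.57 in brainstem and 9.4994, 9.74, 9.71 and 10.82 in hypothalamus (difference -2.62, limma adjusted p = 0.00508). All 6 probes described as T19, a scavenger receptor of the WC1 family known from gamma-delta T cells, were higher in brainstem, with differences of -1.69 to -2.26. A probe described as a membrane protein scavenger receptor homolog, without the name T19, had -1.25 (limma adjusted p = 0.0112). Of T cell receptor probes, the alpha chain was higher in hypothalamus (1.14, limma adjusted p = 0.0152) and gamma in brainstem (-0.63, adjusted p = 0.0279). A probe for neurofilament-H, the heavy subunit of the axonal cytoskeleton of large projection neurons, read 8.85, 9.28, 9.24 and 8.81 in brainstem and 6.75, 6.83, 6.84 and 6.86 in hypothalamus (difference -2.22, limma adjusted p = 0.000266). The pair of probes for the prostaglandin E2 receptor EP1 differed by 2.27 and 2.04 toward hypothalamus (adjusted p = 0.00139 and 0.00125). A probe for NR2F2, a nuclear receptor of forebrain patterning, differed by 1.34 (adjusted p = 0.011) and one for neurogranin, a calmodulin-binding protein of forebrain neurons, by 0.93 (adjusted p = 0.00713).

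The regional difference at 145 d was then set beside the same difference at the other ages. Of the 56 named genes called at 145 d, 45 had a difference of the same sign at all 5 other ages, and in 19 the arrays of the 2 regions did not overlap at any of them. The same counts were not made over all genes, and 28 of the named genes were chosen for large differences without overlap at 145 d. Almost all arrays of the other ages lay on the same slides, so region cannot be told apart from slide or scan day at those ages either. In the comparison of ages, at 80, 100, 120 and 130 d and in newborns, HOXA5 had differences of -4.34, -4.33, -3.09, -3.00 and -2.66. NPVF had 1.21, 1.3954, 2.50, 2.50 and 2.03, and OXT had 3.55, 1.94, 1.4956, 2.40 and 2.21. Each kept its sign at every age. In the test of change between 80 d and 145 d described next, HOXA5 passed, whereas NPVF had an adjusted p of 0.0819 and OXT one of 0.294.

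A test of the change itself, in a fit over the 48 arrays of the 2 regions, called 396 of 12869 genes (3.08%) at an adjusted p under 0.05 between 80 d and 145 d. Without brainstem 145 d replicate 3 or 4, brainstem 80 d replicate 3 or hypothalamus 145 d replicate 3, it called 177, 254, 223 or 260. ADCYAP1 had a difference of 0.18 at 80 d and a change of 1.68 ± 0.35 (SE; limma adjusted p = 0.00501). Between these ages its hypothalamus mean went from 11.99 to 13.94 and its brainstem mean from 11.81 to 12.08. CRHBP changed by 1.93 (adjusted p = 0.00368), with brainstem going from 10.0034 to 8.29 and hypothalamus from 9.66 to 9.88. POMC changed by -1.49 (adjusted p = 0.0274), from a difference of 1.94 at 80 d, and SST by 1.77 (adjusted p = 0.0281), from -0.97, although the change of SST was not called under 8 of 19 alternatives. HOXA5 changed by 1.45 (adjusted p = 0.00546), as its brainstem mean went from 10.84 to 9.34 and hypothalamus stayed near background at 6.50 and 6.45. HOXA4 changed by 0.86 (adjusted p = 0.0112), and HOXA7 had a change of 0.37 that was not called (adjusted p = 0.667).

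NEUROD1 had the largest called change of the named genes, 3.34 (adjusted p = 0.00546), from a difference of -3.36 at 80 d. The brainstem mean of NEUROD1 was 12.75 at 80 d and 7.92 at 145 d, and its hypothalamus mean was 9.39 and 7.90. TF changed by 2.29 (adjusted p = 0.00188), from -2.83. VEGFA went the other way, with a difference of 0.11 at 80 d and a change of -1.53 (adjusted p = 0.00796), and CKB changed by -1.21 (adjusted p = 0.0241).

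**Figure D5:**
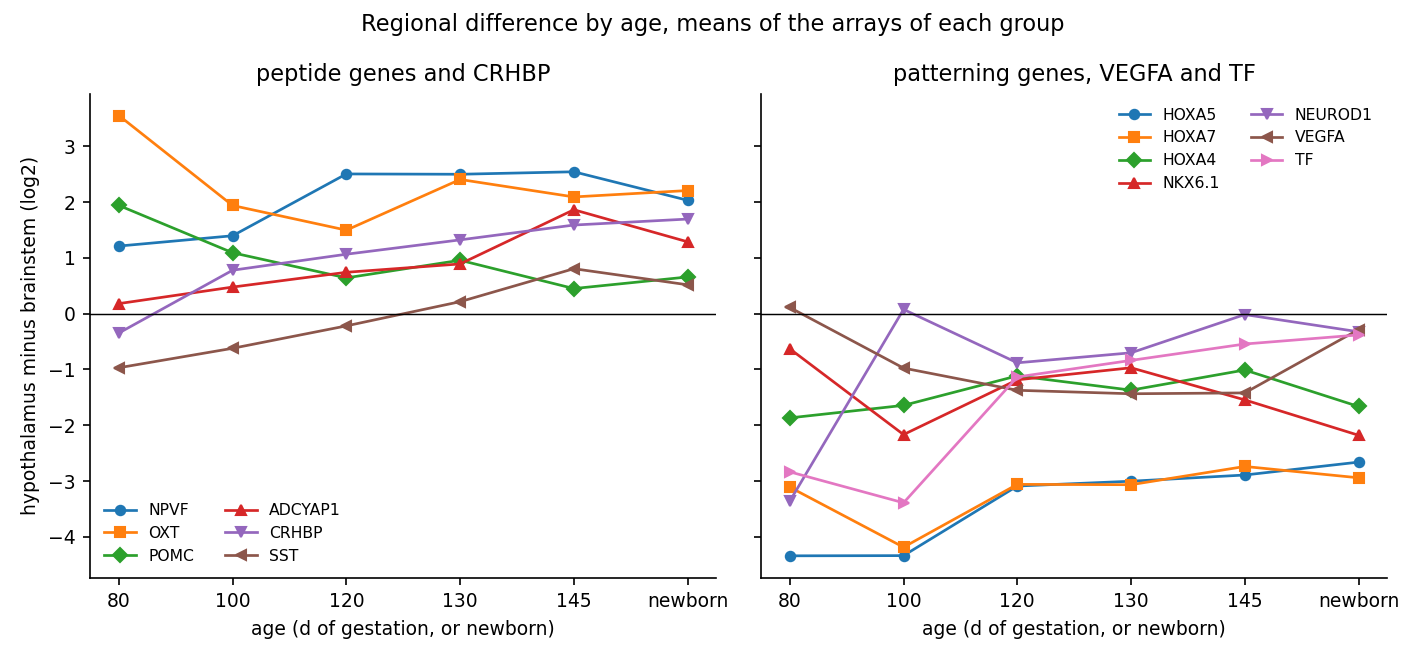
Difference between hypothalamus and brainstem (y axis, log2, means of the arrays of each group) at each of the 6 ages (x axis) for peptide genes and CRHBP (left) and patterning genes, VEGFA and TF (right). OXT and NPVF stay above 1 and HOXA5 and HOXA7 at or below -2.66 at every age, while SST and CRHBP start below 0 and NEUROD1 starts at -3.36.

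The levels in the other 2 regions at 145 d placed the differences among the 4 regions, as a description with no test. The mean of HOXA5 was 6.39 in cortex and 6.38 in hippocampus, close to the hypothalamus mean of 6.45, and that of HOXA7 was 6.48 and 6.56, below the hypothalamus mean of 6.81. AGRP read 6.53 and 6.69 in cortex and hippocampus, GHRH 6.44 and 6.53 and GAL 6.56 and 6.61, all far below their hypothalamus means of 8.57, 8.58 and 9.21. ADCYAP1 read 12.85 in cortex and CRHBP 11.00, and the latter was above its hypothalamus mean of 9.88. ESR1 read 7.81 in both cortex and hippocampus. Not every gene higher in brainstem was low in the other regions. In cortex and hippocampus, EIF3A read 11.16 and 11.54 and HR 8.28 and 8.04, above their hypothalamus means of 9.84 and 6.93. NKX6.1 read 7.87 and 10.19 and VEGFA 8.04 and 9.79, with cortex below and hippocampus above their hypothalamus means of 9.29 and 8.16.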

How the data were processed

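RNA of each region and age was hybridised by the authors to 1-colour Agilent sheep arrays of 15208 gene spots and 536 control spots. The deposited scanner files hold a mean and a background intensity per spot and a processed signal intensity (Feature Extraction 10.1.1.1 per the file headers). The authors also deposited a table of log2 normalized values (limma, per the labels), with column medians of 9.04 to 9.10. Each of its 95 columns correlated best with its own array, and its centring is not given in the sources used here.

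From the scanner intensities, background was corrected with normexp (offset 50) and all 95 arrays were quantile normalized with limma 3.58.1 in R 4.3.3. Outlier spots were left out, spots of a probe and probes of a gene were averaged, and a probe missing on any array of a fit was left out unless the gene had no complete probe. The filter set a floor on each array at 1.1 times the level below which 95 in 100 of its 77 negative control spots lay, and the 12630 probes over it on 4 or more of the 8 arrays were kept. Of 15008 probes, 1562 could be named, through the accession, identifier or name in the files, giving 967 symbols. Regions were compared with lmFit and eBayes, with Benjamini-Hochberg adjusted p over all genes tested. The number of arrays limits the precision. Arrays of a group came from different fetuses, including 1 pair of twins. The p-values measure the spread between these arrays, which holds differences between fetuses, slides and arrays together. The correlation within slides was 0.69 in the fit over the 8 arrays and 0.10 in the fit over 48 arrays. Of the 8 arrays, only brainstem replicates 1 and 2 and hypothalamus replicates 3 and 4 shared a slide. Replicate numbers were not tied to animals by the labels, so the main test used no pairing. The replicate number was a block only among the alternatives, where it need not stand for a fetus. The deviations of same-numbered arrays of the 2 regions correlated at -0.16 to 0.10, and those of differently numbered arrays at -0.20 to 0.30. Arrays of the same fetus could not be matched, so whether they deviate together was not tested.

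A gene not well above background on any array of a group is given a bound. A few genes and probe sequences are not reported here, and those genes were left out of the lists. The members and gene lists were chosen with earlier results of these data known. The named genes were the 14 with the largest difference in each direction among called genes with a symbol whose groups did not overlap, all members of 5 lists (peptides, pituitary, monoamine, hindbrain and forebrain patterning) and up to 4 with the lowest p of each other list. Python 3.11.15 and matplotlib 3.10.9 drew the figures. On simulated data of 12203 genes, the regional test recovered 16.4% of 0.5, 74.6% of 1 and 87.9% of 2 log2 differences, with 4.8% of calls on unchanged genes. The simulated arrays were independent and had the same spread in both regions. In the data the median SD was 0.27 in hypothalamus and 0.15 in brainstem, and slides differed between regions. The simulated rates therefore need not hold for this comparison. Alternatives changed the background correction, scaling, filter, probe averaging, blocks, samples and threshold.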

Additional observations from a re-analysis of the deposited data

Results flagged for a closer look

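In 13 of 213 groups of 4 arrays examined, 1 array lay far from the other 3 by Dixon's criterion, where chance gives about 1 in 20. In brainstem replicate 3, the values were 6.42 for PGR, 8.99 for PAX6, 17.12 for TF, 13.79 for IGFBP2, 10.92 for HK1 and 8.60 for HOXA5, against 6.75, 8.52, 17.55, 14.47, 10.44 and 9.51 on the nearest brainstem array. In hypothalamus replicate 1 they were 10.59 for PTGS1, 7.39 for CP and 7.21 for HOXA7, against 9.95, 6.99 and 6.71 on the nearest hypothalamus array. Hypothalamus replicate 2 had 11.82 for NPY (nearest array 10.65) and 12.94 for IGFBP2 (nearest 13.33). Brainstem replicate 2 had 8.22 for COL2A1 (nearest 7.48), and brainstem replicate 1 had 13.66 for CPE (nearest 13.48).

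For 20 of the 107 named genes the regional difference at 145 d differed from that at 80 d in the limma test of the change. Of the named genes, 28 were chosen for a large difference at 145 d, and the change uses the same arrays. This count is therefore not comparable with the 3.08% called over all genes. The changes toward hypothalamus were 1.68 for ADCYAP1, 1.93 for CRHBP, 1.46 for DIRAS3, 1.03 for PTGFR, 1.77 for SST, 0.75 for HSP90AA1, 0.73 for ITGAM, 0.70 for CCNA2, 0.69 for LPL, 3.34 for NEUROD1, 2.29 for TF, 3.30 for PRL, 0.86 for HOXA4 and 1.45 for HOXA5. The changes toward brainstem were -1.49 for POMC, -1.21 for CKB, -1.64 for MYLK, -1.18 for CX32, -1.53 for VEGFA and -1.36 for EP4d. The adjusted p of these genes lay between 0.00188 and 0.0474. ADCYAP1, CRHBP, ITGAM, NEUROD1, TF and VEGFA were called under all 19 alternatives of this test, and HOXA4 and HOXA5 under 18. CX32 was not called under 16 of them, MYLK under 13, HSP90AA1 and EP4d under 12, CCNA2 under 11, SST, PRL and PTGFR under 8, DIRAS3 under 5, CKB and POMC under 4 and LPL under 2.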

How the results depend on the processing

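Of the 56 named genes called at 145 d, 28 were called under all 23 alternatives and none changed direction. With slide as a random block over the 8 arrays 20 lost their call, and with that block in the fit over 48 arrays 7 did. With the replicate block 17 lost their call, and without hypothalamus replicate 1 the gene ANG-2. The counts toward hypothalamus and brainstem (1146 and 533) were 484 and 217 with the replicate number as a block. With slide as a random block they were 476 and 158 over the 8 arrays and 1384 and 661 in the fit over 48 arrays. At an adjusted p under 0.01 they were 326 and 96. They were 642 and 583 with processed signals, 857 and 787 with the authors' table, and 1600 and 999 with array quality weights, an alternative chosen after seeing the data. Leaving out 1 array gave 500 to 1517 and 179 to 710. The count of changes from 80 d to 145 d (396) was 602 with slide as a random block, 654 with processed signals, 492 with the replicate block and 177 to 478 without 1 array. The cause of these shifts was not tested.

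The named genes whose difference changed sign were not called. With processed signals, MT3 had -0.0342, SLC6A2 -0.36, GH -0.60, CA1 -0.74 and CPE 0.14. With the authors' table, VIM had -0.18 and MT3 -0.24. With array quality weights, SLC6A2 had -0.0413. NEUROD1 had 0.0034 with an offset of 16, 0.0256 for single probes, and 0.15 and 0.0231 with slide as a random block over 8 and 48 arrays. CPE had 0.0300 for the brightest probe and for single probes, and 0.0470 and 0.0162 with those slide blocks, and MGLUR1 had 0.0919 for single probes. Without 1 array, SLC6A2 ranged from -0.0275 to 0.17, CA1 from -0.11 to 0.19, NEUROD1 from -0.22 to 0.22, CPE from -0.16 to 0.13 and GHRHR from -0.14 to 0.0436.

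A signal near background limits HOXA4, HOXA5, HOXC6, AGRP, GNRH1 and SLC6A4, whose lower group was at or near background. The same limit holds for GHRH, PGR and CCNA2, with 2 of 4 brainstem arrays well above background. It holds too for PMCH and TSHR (1 of 4 brainstem arrays) and HR (2 of 4 hypothalamus arrays). In the lower group, 3 of 4 arrays were well above background for NPVF, GAL, LCK, EM4B and GNLY.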
